A study of Mus musculus and Homo sapiens with 40 samples.

Results

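The 9 genes described here encode receptors, or receptor chains, for haematopoietic growth factors: Kit, Flt3, Csf1r, Epor, Csf3r, Csf2ra, Csf2rb, Il3ra and Il6ra. They were taken by name from the 21757 mouse protein-coding genes of the GENCODE annotation (GRCm39, mm39), and each locus was the gene body with 50 kb on both sides. A peak belonged to a locus when its summit lay inside it. For H3K27ac, the 9 loci held 274 of 129369 peaks in untreated p42 cells, 260 of 107141 in p42 cells with LPS, 284 of 139210 in untreated p30 cells and 313 of 142419 in p30 cells with LPS. For H3K4me1 they held 329 of 134658 peaks in p42 and 350 of 168035 in p30. For the transcription factor they held 29 of 47517 anti-CEBPA peaks in p42 and 21 of 31851 in p30, and 35 of 23248 anti-ER peaks in p42 and 39 of 34006 in p30.

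The ChIP-seq came from HPC-7 cells, a mouse haematopoietic progenitor line grown with stem cell factor, the ligand of KIT. Cells carried a retrovirus for CEBPA p42-ERT2 (the full-length isoform) or p30-ERT2 (the shorter isoform that starts at an internal codon), sorted on the GFP of the same vector. ERT2 is a fragment of the estrogen receptor that keeps the fusion protein out of the nucleus until hydroxytamoxifen is given. The study's methods state that it was given before experiments, and the sample labels do not name it. The groups were p42 and p30 cells for H3K27ac (untreated, or with LPS at 100 ng/mL for 2 h, 3 pooled libraries each), for H3K4me1 (untreated, 2 pooled libraries each), and for anti-CEBPA and anti-ER (1 library each). All groups therefore share the SCF in the medium and the same vector. Every cell line is also an isoform, so line and isoform cannot be told apart. With 1 peak list per group, differences between groups could not be set against replicates or tested. The files do not give the read depth behind each list, and the study states a range for all samples together. Wilson 95% intervals cover counting error over regions only.

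KIT, FLT3 and CSF1R are receptor tyrosine kinases, for stem cell factor, FLT3 ligand and the macrophage growth factors CSF1 and IL-34. EPOR and CSF3R bind erythropoietin and G-CSF as homodimers, whereas the alpha chains CSF2RA (GM-CSF) and IL3RA (IL-3) signal with the common beta chain CSF2RB, and IL6RA with gp130, all through JAK kinases and STAT proteins. C/EBPα is known to be needed for the expression of the G-CSF and IL-6 receptors in myeloid progenitors. H3K27ac marks active promoters and enhancers, and H3K4me1 marks enhancers whether active or not.

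Sequences under CEBPA summits are shown first. All are GRCm39, plus strand. Capitals mark matches to TTGCNNAA on either strand, a relaxed form of the C/EBP site. The first is the Kit site found only in p42, and the next 4 are distal sites found with both antibodies in both lines. They lie outside exons and are given as 100 bases around the summit.
Kit intron, chr5:75776415-75776514: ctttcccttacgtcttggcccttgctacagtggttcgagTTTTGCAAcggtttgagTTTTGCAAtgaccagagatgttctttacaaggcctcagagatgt
Csf3r upstream, chr4:125911592-125911691: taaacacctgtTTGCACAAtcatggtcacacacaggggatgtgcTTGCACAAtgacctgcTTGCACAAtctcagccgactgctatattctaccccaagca
Flt3 intron, chr5:147325842-147325941: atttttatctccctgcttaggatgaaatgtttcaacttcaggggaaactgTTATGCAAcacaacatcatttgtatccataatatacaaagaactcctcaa
Flt3 intron, chr5:147329584-147329683: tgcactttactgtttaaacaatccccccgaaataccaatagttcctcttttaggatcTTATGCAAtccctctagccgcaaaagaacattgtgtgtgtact
Il3ra upstream, chr14:8150996-8151095: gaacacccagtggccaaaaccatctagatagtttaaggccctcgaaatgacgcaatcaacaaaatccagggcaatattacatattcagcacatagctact
The Csf3r upstream site held 3 matches and the Kit site 2, the Flt3 sites 1 each, and the Il3ra upstream site 0.

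The sites at gene starts are given as 30 bases around the match nearest to the summit, or around the summit where there was no match.
Csf2rb start, chr15:78210152-78210181: ggcgaagctgcTTGCGAAAgggcactggca
Il3ra start, chr14:8123384-8123413: tggtcccgagaTTGAGCAActtcctgagat
Csf3r start, chr4:125918425-125918454: ggaagccaggaaggtgtcgcaattctgggt
Il6ra start, chr3:89820619-89820648: agcccagtaggatggcgcaatcggccagcg
Csf2rb and Il3ra held a match at their start. The Il6ra and Csf3r starts did not.

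The promoters of 8 of the 9 receptor genes carried an H3K27ac peak in all 4 lists, and Flt3 carried none in any list. A promoter was 1000 bp upstream to 100 bp downstream of any protein-coding start site. Among all protein-coding genes 48.9% had such a peak in all 4 lists. Which fraction of cells carried the mark, and how much each cell carried, cannot be told apart in such lists.

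Among the receptor tyrosine kinases, Kit had a broad promoter peak. It was 9866 bp wide in untreated p42 cells, 8596 bp in p42 with LPS, 11084 bp in untreated p30 and 11446 bp in p30 with LPS. Its ranks by p-value within those lists were 6819, 7584, 5791 and 4667. In each list the Kit peak was thus wider than at least 99.7% of peaks while its rank lay between the top 3.28% and the top 7.08%, so the width was more extreme than the rank. The peak that covers a Csf1r start was 4808, 4832, 4978 and 5202 bp wide in the same order. Its summit lay 2325 to 2680 bp downstream of the canonical start, inside the gene. The Csf1r values were thus alike in all 4 lists, with ranks from 4950 to 7319. At Flt3 the strongest peak of the locus was at ranks 40, 83, 74 and 61, among the strongest peaks of each list. That peak belonged to the neighbour Pan3, with its summit 805 to 841 bp from a Pan3 start and -30476 to -30512 bp from that of Flt3 (negative is upstream).

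Among the cytokine receptors, Csf2rb showed the largest difference in promoter peak width, in bp, between the untreated lines. Its peak was 8163 bp wide in untreated p42 and 7632 bp with LPS, against 3638 and 3672 bp in p30. The ranks were 4084 and 4156 in p42 and 3133 and 3347 in p30, so the narrower p30 peak did not have a lower rank. The Csf3r peak was 5931 bp in untreated p42, 3848 bp in p42 with LPS, 4018 bp in untreated p30 and 10446 bp in p30 with LPS. The Csf3r peak was thus widest in p30 with LPS, where its rank was also best, at 4186 against 5495 to 6210 in the other lists. The Il6ra peak was 5945, 6902, 6045 and 8753 bp wide in the order used for Kit, with ranks 2688, 4542, 4547 and 6602. With LPS it was wider in both lines and ranked lower in both.

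Il3ra had the best promoter rank of the members in untreated p42, at 2001, and 2963 in untreated p30. With LPS the ranks were 3217 and 3942. Its widths were 2305, 3146, 1698 and 3172 bp, wider with LPS in both lines. The weaker promoter peaks were those of Csf2ra, at ranks 12635 to 13866, and Epor, at ranks 23786 to 30226. Epor, the erythropoietin receptor, thus had the weakest promoter peak of the 8 in every list. By the 4 promoter rank percentiles, the genes nearest to Kit were Fanci, Pqbp1 and Timm17b and those nearest to Csf3r were Ficd, Tmem222 and Drap1, at Euclidean distances of 0.228 to 0.472 percentile points.

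**Figure D1:**
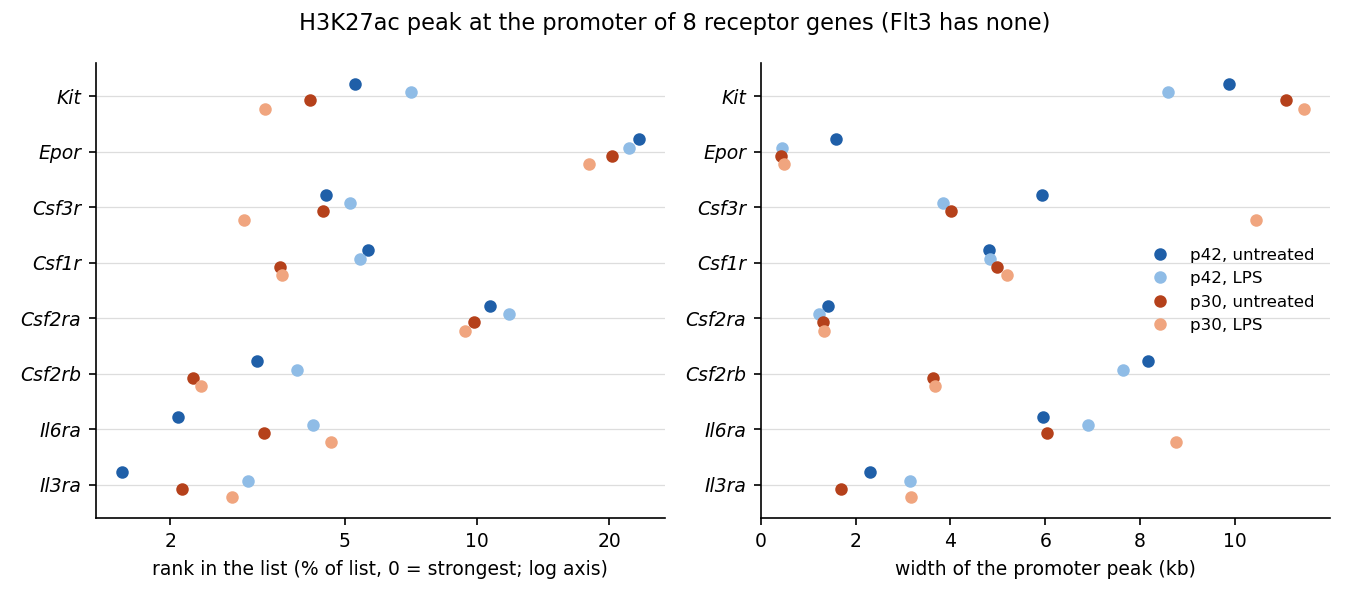
H3K27ac peak at the promoter of the 8 members that had one, as rank in percent of the list (left, log axis, lower is stronger) and width in kb (right), with 1 point for each pooled list. Csf2rb was 8163 and 7632 bp wide in p42 against 3638 and 3672 bp in p30, and Csf3r reached 10446 bp in p30 with LPS.

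Over the whole loci, Kit and Csf1r were among the most covered by H3K27ac peaks in both untreated lists, with Csf2rb beside them in p42. In untreated cells the share of the Kit locus under peaks was 37.9% in p42 and 41.1% in p30, against a median over gene loci of 6.68% and 6.87%. It was 35.2% and 35.5% for Csf1r, and 37.9% and 27.3% for Csf2rb, which lay below Il6ra (28%) in p30. Kit was alone in its locus, so that each of its 55 to 65 H3K27ac peaks per list had the Kit start as the nearest start site. At Epor, by contrast, only 1 of 16 peaks in untreated p42 and 3 of 18 in untreated p30 were nearest to Epor. The remainder lay nearer to neighbours such as Swsap1, Rab3d and Prkcsh. The least covered were Csf2ra, at 8.6% and 5.5%, and Il3ra, at 5.12% and 4.12%.

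**Figure D2:**
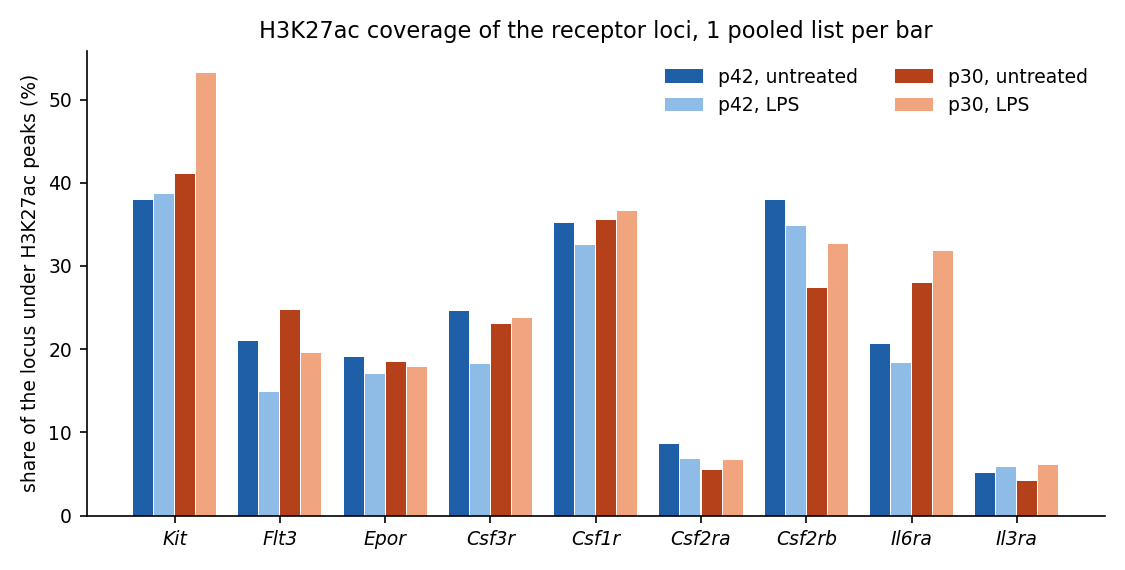
Share of each locus (gene body with 50 kb on both sides) under H3K27ac peaks, in percent, with 1 bar for each pooled list. Kit reached 53.2% in p30 with LPS, and Il6ra was higher in both p30 lists (28% and 31.8%) than in both p42 lists (20.6% and 18.4%).

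The first comparison asked where p30 and p42 cells differed without LPS. Il6ra, the IL-6 receptor, Flt3 and Kit had more regions in p30 alone, and Csf3r, Csf2rb and Csf2ra had more in p42 alone. Of 41 regions at Il6ra, 15 were found in p30 only and 3 in p42 only, and 12 and 4 of 40 at Flt3. At Kit 6 of 35 were found in p30 only and 2 in p42 only. The p30-only share was 36.6% at Il6ra, 30% at Flt3 and 17.1% at Kit, against 27.3% of all regions. Kit thus lay below that share and Flt3 near it. Of 30 regions at Csf3r, 10 were found in p42 only and 2 in p30 only, and 9 and 2 of 31 at Csf2rb, with 3 and 0 of 8 at Csf2ra. The p42-only share was 33.3% at Csf3r, 29% at Csf2rb and 37.5% at Csf2ra, against 19.9% of all regions. At every member most regions were found in both lines, from 56.1% at Il6ra to 92.3% at Epor (12 of 13) and 100% at Il3ra (4 of 4). The share was 77.1% at Kit (27 of 35) and 64.8% over the 9 loci. At Csf1r 10 regions were found in each line alone, of 51.

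Covered length moved in the same directions at these loci. From p42 to p30, untreated, it went from 30756 to 41866 bp at Il6ra (ratio 1.36, higher than at 88.9% of gene loci) and from 35682 to 42026 bp at Flt3 (ratio 1.18). It went from 48596 to 34909 bp at Csf2rb (ratio 0.718) and from 8991 to 5745 bp at Csf2ra (ratio 0.639, at the 4.34 percentile). The loci of the GM-CSF receptor subunits thus lay low among the ratios, and so did Il3ra (0.803, at the 12.9 percentile). The Csf2rb locus also holds Csf2rb2, and peaks nearest to Csf2rb numbered 17 in untreated p42 and 21 in untreated p30. The median ratio over gene loci was 1.03 and the central 95% ran from 0.569 to 1.86. All 9 ratios lay inside that range. Covered length was larger in p30 at 4 of 9 loci, against 56.3% of gene loci, and at one of these, Csf1r, the ratio of 1.01 became 0.998 with q under 0.01. Over all 9 loci, 41 of 253 regions (16.2%, 12.2 to 21.2) were found in p42 only and 48 (19%, 14.6 to 24.3) in p30 only, against 19.9% and 27.3% of all regions. The order of those shares turned when the same number of best ranked peaks was taken from each list (p30 only minus p42 only of -0.459 percentage points).

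The best ranked regions found in 1 line were of modest rank. At Csf1r a 1159-bp region in an intron of the upstream gene Pdgfrb, with its summit at -30573 bp, was found in untreated p42 at rank 27842 and fold enrichment 6.01, and not in untreated p30. It is the strongest of the named line-only H3K27ac regions and holds a CEBPA core site. At Csf2ra a region at -38527 bp was found in untreated p42 at rank 46522. At Il6ra a 938-bp region at 37290 bp, within an intron, was found in untreated p30 at rank 62932.

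The next question was what LPS changed in each line. Covered H3K27ac was longer with LPS in both lines at Kit and Il3ra, shorter in both at Flt3 and Epor, and shorter in p42 but longer in p30 at the other 5 members. At Kit p42 cells had 69004 bp before and 70135 bp after LPS, where p30 cells had 74710 and 96738 bp. At Il3ra p42 cells had 5625 and 6465 bp, where p30 cells had 4518 and 6627 bp. At Flt3 p42 cells had 35682 and 25145 bp, where p30 cells had 42026 and 33368 bp, the lowest ratio of the members in each line. Longer in both lines was the case at 2 of 9 members and at 12.1% of gene loci, and shorter in both at 2 of 9 and at 48.6%. Shorter in p42 but longer in p30 was the case at 5 of 9 members and at 35.6% of gene loci. One of the 5 was Csf1r, where the p30 ratio of 1.03 became 0.977 with q under 1e-05 and 0.972 with lists of equal length. The lists themselves differed in length, and the median ratio over gene loci was 0.836 in p42 and 0.992 in p30.

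Relative to those medians, the p42 ratio was 1.02 at Kit and 1.15 at Il3ra (86.1 and 94.5 percentile), and the p30 ratio 1.29 and 1.47 (91.2 and 95.7 percentile). Both loci thus lay in the upper part of the ratios in both lines. Flt3 lay at the 19.5 percentile in p42 (0.705) and the 10.3 percentile in p30 (0.794). Each value lay inside the central 95% of gene loci, which ran from 0.511 to 1.3 in p42 and from 0.663 to 1.62 in p30.

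**Figure D3:**
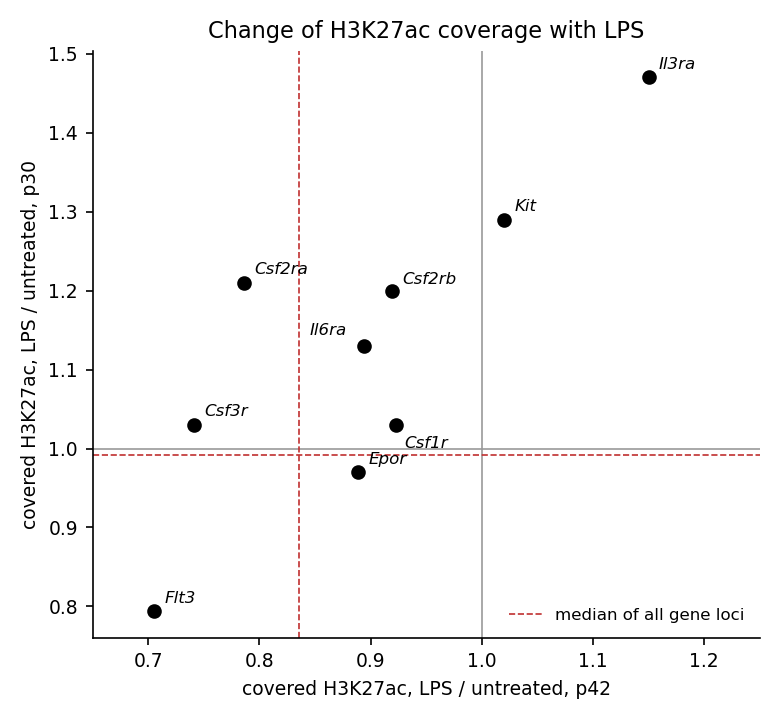
Ratio of covered H3K27ac length with LPS to that untreated, in p42 (horizontal) and p30 (vertical), with 1 point for each locus, grey lines at no change and dashed lines at the medians over gene loci (0.836 and 0.992). Il3ra and Kit lie at the upper right and Flt3 at the lower left.

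Region by region, Kit lost 0 of 48 regions with LPS in p30 and gained 15. In p42 it lost 3 of 34 and gained 5. The best ranked gained region at Kit lay downstream of the gene in both lines, at 116536 bp in p42 (946 bp wide, rank 36924) and at 117033 bp in p30 (2133 bp wide, rank 27029). The Flt3 locus, neighbours included, lost 13 of 29 regions in p42 and 15 of 40 in p30, and gained 1 and 4. Csf3r lost 10 of 28 and gained 0 in p42, and lost 0 of 23 and gained 3 in p30. Il6ra gained 16 of 54 in p30 and lost 8, against 2 gained and 8 lost of 28 in p42. Csf2rb gained 11 of 33 and lost 3 in p30, with 6 gained and 6 lost of 35 in p42. The shares lost in p42 at Csf3r (35.7%) and Il6ra (28.6%) lay near that of all regions.

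Some regions of untreated p42 that were absent from untreated p30 were listed in p30 with LPS. They included the Csf1r region at -30573 bp, where p30 with LPS had a peak of 365 bp at -30556 bp, rank 39988. At Csf2ra the region at -38527 bp had a p30 LPS peak at -38513 bp, rank 30548, and the p42 peak there was no longer listed with LPS. Over the loci this held for 14 of 41 p42-only regions (34.1%, 21.6 to 49.5), against 28.8% of such regions in the genome. The reverse, p30-only regions listed in p42 with LPS, held for 8 of 48 (16.7%, 8.7 to 29.6), against 14%. Both shares were near the background. By locus, the p30-only regions listed in p42 with LPS were 0 of 15 at Il6ra and 0 of 12 at Flt3. They were 4 of 10 at Csf1r, 2 of 6 at Kit, 2 of 2 at Csf2rb, 0 of 2 at Csf3r and 0 of 1 at Epor. With a background of 14%, counts this small do not set 1 locus apart.

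Over the 9 loci, 56 of 230 regions (24.3%, 19.3 to 30.3) were lost and 25 (10.9%, 7.47 to 15.6) gained in p42, against 33.2% and 12.5% of all regions. In p30, 36 of 278 (12.9%, 9.5 to 17.4) were lost and 66 (23.7%, 19.1 to 29.1) gained, against 22.7% and 22.5%. The shares lost at the receptor loci were below the background in both lines, and the shares gained were near it. Gained minus lost was -13.5 percentage points in p42 and 10.8 in p30. The p42 value came to -2.83 with the same number of best ranked peaks from each list, -3.03 with regions nearest to a member's start, -3.47 with reciprocal overlap of 50% and -4.27 with presence at q under 1e-05 and absence in the full list, and the p30 value ran from 5.8 to 22.6 over all settings.

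**Figure D4:**
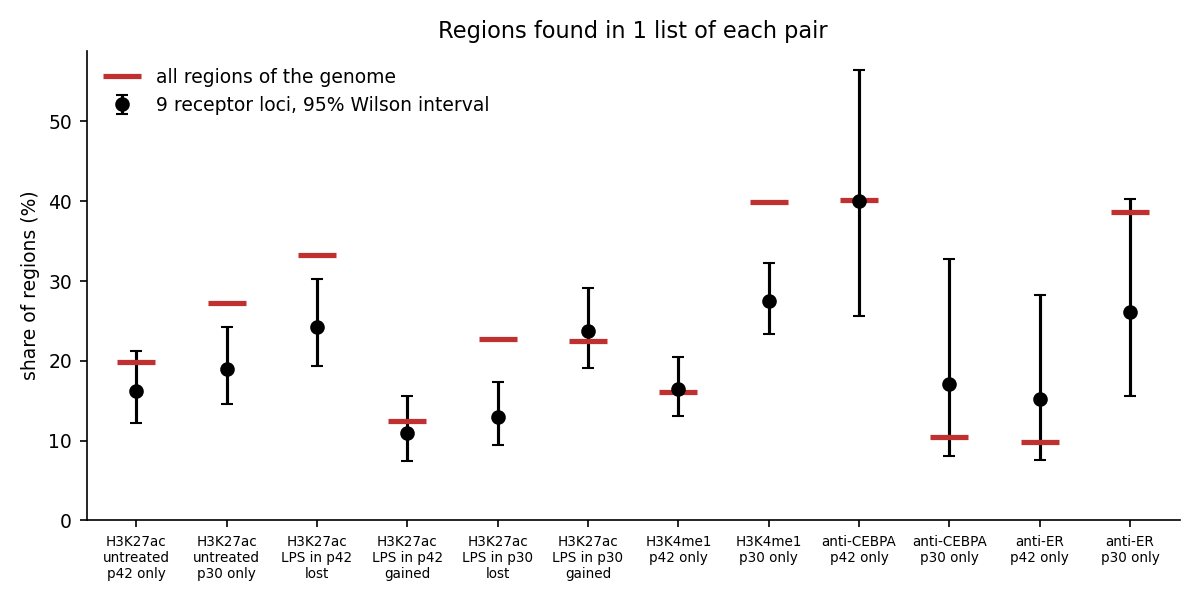
Share of regions found in 1 list of each pair, in percent, for the 9 loci together (points with 95% Wilson intervals) and for all regions of the genome (red bars). The intervals of the points lie below the red bar for H3K27ac in p30 only, H3K27ac lost with LPS in both lines and H3K4me1 in p30 only.

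H3K4me1 was compared between the untreated lines. It was densest at Csf2rb, Il6ra and Csf1r, and no H3K4me1 peak was listed at Il3ra in either line. The covered share in p42 and p30 was 31.6% and 30% at Csf2rb, 26.2% and 35.3% at Il6ra, and 23.3% and 29.5% at Csf1r, against medians of 2.38% and 3.37%. In p42 the strongest H3K4me1 peaks of the loci lay in introns of Kit (6333 bp from the start, rank 472) and Csf2rb (6796 bp, rank 486). In p30 the strongest Kit peak was at rank 1667, 5726 bp from the start, and that of Csf2rb at rank 2088, while the strongest of all lay in an intron of Pan3 in the Flt3 locus (rank 377). Flt3 went from 30610 to 48068 bp covered (ratio 1.57) and Epor from 5371 to 4368 bp (ratio 0.813), against a median ratio over gene loci of 1.31. Flt3 also carried H3K4me1 at its promoter in both lines (ranks 91984 and 45549), where no list had H3K27ac.

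Over the 9 loci, 63 of 382 H3K4me1 regions (16.5%, 13.1 to 20.5) were found in p42 only and 105 (27.5%, 23.3 to 32.2) in p30 only, against 16.1% and 39.9% of all regions. At Kit 33 of 86 (38.4%) and at Flt3 24 of 67 (35.8%) were found in p30 only, near or below the 39.9% of all regions. With the same number of best ranked peaks from each list the order of the shares turned (-5.11 percentage points). The Csf1r region at -30573 bp had an H3K4me1 peak in p42 only, at -30467 bp and rank 22801.

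CEBPA was read with 2 antibodies, against CEBPA and against the ER part of the fusion, and a core site had a peak with both antibodies in both lines. The loci held 54 sites of any list. Of these, 22 were in 1 list, 9 in 2 lists, 9 in 3 lists and 14 in all 4, the core sites, of 13341 core sites in the genome. Core sites lay in 7 of the 9 loci, against 56.7% of protein-coding gene loci. Kit and Csf2ra had none. Core summits lay at the promoter of Csf2rb, Il6ra and Il3ra, 3 of 9 members against 4.44% of protein-coding genes. Of the 14 core sites, 10 lay inside H3K27ac of both untreated lists, against 31.7% of core sites, and 7 inside H3K4me1 of either line, against 27.3%.

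Sites of the receptors for IL-6 and G-CSF held the best 2 ranks among the loci in every list except anti-CEBPA in p42, where the Csf3r site came first and sites of Flt3 (rank 3401) and Csf1r (3497) came before that of Il6ra. The Il6ra start site, with its summit at -131 bp, ranked 3761 with anti-CEBPA and 552 with anti-ER in p42, and 974 and 240 in p30. Its fold enrichments were 22.6 and 36.8 in p42 and 34.6 and 73.8 in p30, so that both antibodies placed it higher in p30. The Csf3r upstream site, at -6677 bp, ranked 1233 and 385 in p42 and 3721 and 972 in p30. Its fold enrichments were 38 and 46.3 in p42 and 18.6 and 36.7 in p30, so that both antibodies placed it higher in p42. Among the 13341 core sites, the Il6ra start went from place 3622 to 974 (anti-CEBPA) and from 530 to 232 (anti-ER) between p42 and p30, and the Csf3r upstream site from 1230 to 3663 and from 366 to 956.

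Csf3r had 2 more core sites. The one at 121 bp from its start, just past the promoter window, ranked 11941 and 5811 in p42 and 4754 and 4113 in p30. The other lay at 43037 bp in an intron of Oscp1 and ranked 5511 and 6324 in p42 and 12864 and 9639 in p30, outside H3K27ac in all 4 lists. The Csf3r sites therefore did not share a direction, with the start placed higher in p30 and the distal sites higher in p42.

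The Csf2rb start, at -39 bp, ranked 19900 and 5699 in p42 and 5667 and 1490 in p30. The Il3ra start, at -37 bp, ranked 18851 and 17630 in p42 and 14329 and 5378 in p30. By place among core sites both stood higher in p30 with both antibodies, as did the Il6ra and Csf3r starts. All 4 core sites at starts of members were thus placed higher in p30, and the 4 core sites placed higher in p42 were distal. Other distal sites, of Flt3 at 7666 bp and Csf2rb at -47452 bp, were placed higher in p30 with both antibodies. So was the site of the Csf1r locus at the Hmgxb3 promoter. At the distal sites of Flt3 at 11408 bp, Epor and Il6ra the antibodies differed in direction. In the genome most core sites at starts also stood higher in p30. Of 558 core sites within 200 bp of a start site, 63.8% stood higher in p30 with both antibodies and 10.4% in p42. Over all core sites the shares were 30.8% and 28.4%. The distance of 200 bp was set after the values of the members were seen. The Il3ra upstream site at -27684 bp was placed higher in p42, with ranks 5801 and 12010 in p42 and 9302 and 13623 in p30. It lay outside H3K27ac and H3K4me1 in every list. A second Csf2rb core site at -47452 bp was weaker with anti-CEBPA, at rank 39743 in p42 and 20345 in p30. The strongest p42 site of the Csf2rb locus, at 43216 bp (rank 5211 with anti-CEBPA and 2343 with anti-ER), had a p30 peak with anti-ER (rank 7202) and none with anti-CEBPA.

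In Flt3 the core sites lay in introns. The site at 11408 bp ranked 3401 and 2605 in p42 and 4889 and 1914 in p30, inside H3K27ac and H3K4me1 in every list. The site at 7666 bp ranked 17867 and 4395 in p42 and 4133 and 2196 in p30, inside H3K27ac except in p30 with LPS. At Csf1r a core site at -30940 bp ranked 3497 and 2386 in p42 and 5822 and 7561 in p30. That site lay inside H3K27ac in both p42 lists and in neither p30 list, since the p30 LPS peak nearby did not reach the CEBPA summit, and inside H3K4me1 in p42 only, while CEBPA was listed there in both lines. The other Csf1r core site, at 71409 bp, lay at the promoter of the neighbour Hmgxb3. The Epor core site lay at 53879 bp in an exon of Rab3d, and the second Il6ra core site at 51915 bp in an exon of She.

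Kit had no CEBPA peak in p30 with either antibody. In p42 it had 2 anti-CEBPA peaks and 1 anti-ER peak. The anti-ER peak met one of the anti-CEBPA peaks in a site in an intron at 40889 bp, at rank 38893 with anti-CEBPA (fold enrichment 5.76) and 13097 with anti-ER (6.96), in the weaker part of both lists. The surrounding DNA was inside H3K27ac in all 4 lists and H3K4me1 in both. The other line-only sites found with both antibodies were a p42 site at 35148 bp in the Csf1r locus (ranks 45065 and 22762) and p30 sites at -58013 bp in the Csf1r locus (ranks 14443 and 5542) and at -20189 bp in the Csf2rb locus (ranks 21085 and 18581). The last lay at the promoter of Csf2rb2, a near copy of Csf2rb, where reads of the copies could be confused. The genome held 1237 such p42 sites and 1052 such p30 sites, against 2 and 2 in the loci. The start of Csf1r itself had a weak site at -63 bp in 3 lists, without anti-CEBPA in p42.

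**Figure D5:**
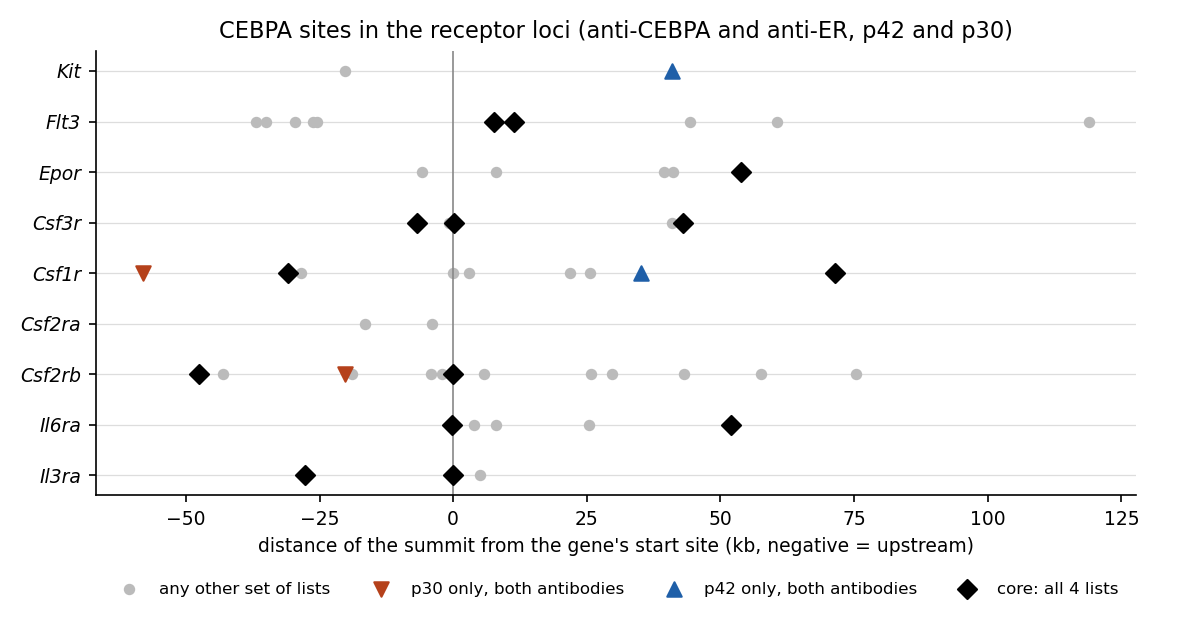
Positions of the 54 CEBPA sites of the 9 loci, in kb from the start of each gene (negative is upstream), with the 14 core sites as black diamonds and sites of 1 line with both antibodies as triangles. Core sites lie close to the start at Csf3r, Csf2rb, Il6ra and Il3ra, and Kit and Csf2ra have none.

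By list pair, 14 of 35 anti-CEBPA regions (40%, 25.6 to 56.4) were found in p42 only and 6 (17.1%, 8.1 to 32.7) in p30 only, against 40.1% and 10.5% of all regions. For anti-ER, 7 of 46 (15.2%, 7.57 to 28.2) were found in p42 only and 12 (26.1%, 15.6 to 40.3) in p30 only, against 9.83% and 38.7%. The 2 antibodies thus gave opposite orders of the lines, in the loci and in the genome. With each antibody the line with the longer list had the larger share of its own. The lists held 47517 anti-CEBPA peaks in p42 and 31851 in p30, and 23248 anti-ER peaks in p42 and 34006 in p30. The peak calling settings may also have differed between the antibodies. With the same number of best ranked peaks from each list both orders turned, to 16 points for anti-CEBPA and -18.4 points for anti-ER (p30 only minus p42 only). Of the 14 core sites, 7 had the better place among core sites in p30 with both antibodies and 4 in p42, against 30.8% and 28.4% of core sites. TTGCNNAA was found in the 200 bp around the summit in 8 of 14 core sites (57.1%), against 61.1% of core sites and 8.68% of windows 5 kb away.

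Each of the other motifs was in at most 3 of the 14 windows, on either strand. The palindrome TTGCGCAA, the C/EBP and ATF4 composite TGATGCAA and the RUNX letters TGTGGT were in 0 of 14, against 5.77%, 7.47% and 18.7% of core sites. The GATA letters AGATAA were in 3, namely the Flt3 site at 11408 bp, the Csf3r site at 43037 bp and the Csf2rb start, against 11.8%. The AP-1 letters TGANTCA were in 2, the distal sites of Csf2rb and Il6ra, against 8.18%. The PU.1 letters GAGGAAGT were in 1, the Csf2rb start, against 4.06%. In windows 5 kb away the shares were 15.1% for RUNX, 12.1% for GATA, 5.98% for AP-1 and 1.22% for PU.1. The GATA letters were thus no more common at core sites of the genome than in those windows.

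The rest of the pathway was read from lists of genes grouped by role. All 8 JAK and STAT genes, all 7 feedback genes and all 8 adaptors and kinases had H3K27ac at the promoter in the 4 lists. Among them were Jak2, the kinase that most of these cytokine receptors use, at rank 3838 in untreated p42 and 4939 in untreated p30, and Stat3, which acts after IL-6 and G-CSF, at ranks 862 and 665. Of 9 ligands, 4 had such a peak in all 4 lists. Among all protein-coding genes the share was 48.9%. The ligands thus lay near it, and the JAK and STAT, feedback and adaptor groups above it. Kitl, which encodes stem cell factor, Il34, Csf2 and Il3 had none in any list, and Csf3 lacked one in untreated p42 only. Il6 stood at rank 17957 untreated and 9699 with LPS in p42, and at 25209 and 13150 in p30. Among other haematopoietic cytokine receptors, Il6st, Csf2rb2, Il5ra and Il2rg had it in all 4 lists, while Il7r, Tek and Lepr had none. A core CEBPA site lay in the locus of 8 of 8 adaptors and kinases, 5 of 7 feedback genes, 5 of 9 ligands and 4 of 8 JAK and STAT genes, against 56.7% of protein-coding genes, so that the last 2 groups lay near the background.

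Markers of cell types were read in the same way. H3K27ac was at the promoter in all 4 lists for 8 of 8 progenitor markers, 4 of 5 macrophage, 3 of 6 granulocyte, 1 of 4 erythroid, 0 of 3 B cell, 1 of 3 T cell and 0 of 3 fibroblast markers. Among all protein-coding genes the share was 48.9%. The granulocyte markers lay near it, and the erythroid, B cell, T cell and fibroblast markers below it. Of the granulocyte markers, Camp and S100a8 had a promoter peak in both p42 lists. In p30 Camp had it with LPS only and S100a8 in neither list. The S100a8 peaks of p42 were weak, at ranks 33436 and 33842. Its locus had more covered H3K27ac in untreated p30 (3643 bp) than in untreated p42 (3230 bp). Elane, Mpo and Ltf had a promoter peak in all 4 lists, and Ly6g had none. Whether the lines differ in cell state, and what part this has in the receptor results, was not tested.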

How the data were processed

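ChIP-seq peak lists of mouse HPC-7 cells were used, 10 in all. The 19 inputs of the 40 samples served the authors as controls, and the list of the 2 human KO-52 samples was not used here. According to the study's methods and the submitters' processing notes, reads were trimmed (Trim Galore 0.6.6), aligned to mm39 with Bowtie2, freed of Picard duplicates and called with MACS2 against input. The anti-CEBPA lists carry no mark of the model-free setting that the other lists carry. Chromatin was digested with MNase for H3K4me1 and sonicated otherwise. As deposited by the authors, each peak has a ratio (the fold enrichment at its summit), a −log10 p-value and a −log10 q-value, and every list ended at a q-value of 0.05. No read counts were used, so lists were compared by presence, width and rank by −log10 p, and not by test. The files do not give the read depth of each list.

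The members and gene lists were chosen with earlier results of these data known, and the share of regions of 1 line that the other line held with LPS was counted after the values were seen. All members were named. Named sites were the strongest peak of each list, the core CEBPA sites, the sites of 1 line with both antibodies, and the best ranked region of each class per locus, of which those that a comparison turned on are given; other sites and genes were named after their values were seen. One gene of the list of other receptors, and the counts over that list, are not reported here. Peaks on chromosomes 1 to 19, X and Y were kept. The 4 H3K27ac lists, and each other pair or set of lists, were merged into regions with an overlap of at least 1 bp. Covered length is the length of a locus under peaks. Distances are from the start of the canonical transcript. Background shares were taken over all regions, all 21757 protein-coding genes, or the 16346 gene loci with H3K27ac in all 4 lists. Sequences were read from GRCm39, with control windows 5 kb to either side. The region classes and the assignment of regions to a locus were tested on simulated data, and the other steps were not. Alternatives were q-values under 0.01 and 1e-05, lists of equal length, reciprocal overlap of 50%, loci with 10 or 100 kb, other promoters and other windows. Computation used matplotlib 3.10.9, scipy 1.17.1, pandas 2.3.3 and numpy 2.4.6 in Python 3.11.15.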

Additional observations from a re-analysis of the deposited data

Results flagged for a closer look

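At 5 loci the covered H3K27ac length was shorter with LPS in p42 and longer with LPS in p30, as at 35.6% of gene loci. The LPS ratio in p30 was 1.54 times that in p42 at Csf2ra, 1.4 times at Csf3r, 1.31 times at Csf2rb, 1.27 times at Il6ra and 1.12 times at Csf1r. At Csf1r the p30 ratio of 1.03 became 0.977 with q under 1e-05 and 0.972 with lists of equal length. The median ratio over gene loci also differed between the lines (0.836 in p42 and 0.992 in p30), as did the lengths of the lists. Each line had 1 pooled list per condition, and the difference was not tested.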

How the results depend on the processing

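No paired analysis was possible because each group has 1 list, called on pooled libraries or on a single library. Of 60 values under alternatives for the 9 comparisons, 44 stayed within the counting interval of the reported value, or within 1.5 times it for counts. The share of regions in both lists of a pair, against 64.8% for H3K27ac untreated, 64.8% for LPS in p42, 63.3% for LPS in p30, 56% for H3K4me1 and 58.7% for anti-ER, moved as follows. With reciprocal overlap of 50% it was 29.8%, 32.5%, 32.4%, 23.7% and 37%. With presence at q under 1e-05 and absence in the full list it was 83.9%, 82.3%, 86% and 79.2% for the first 4. With q under 1e-05 it was 69.1% for LPS in p30 and 50.7% for H3K4me1, with 10 kb at the loci 78.2% for LPS in p42 and 61.3% for H3K4me1, and with regions nearest to a member's start 74.7% for LPS in p42. Core CEBPA sites numbered 8 in place of 14 with 10 kb at the loci, and 8 when nearest to a member's start.

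The excess of p30-only over p42-only regions turned with lists of equal length for H3K27ac untreated (-0.459 points), H3K4me1 (-5.11), anti-CEBPA (16) and anti-ER (-18.4), and for H3K27ac untreated also with q under 1e-05 (-4.76) and with that threshold for presence only (-4.17). Without turning, differences also moved for gained minus lost regions with LPS in p42 (-13.5 points, -2.83 to -15.7 over all settings) and in p30 (10.8, 5.8 to 22.6). H3K4me1 (11) came to 3.83 with reciprocal overlap of 50%, anti-CEBPA (-22.9) to -44.4 and anti-ER (10.9) to 0 with sites nearest to a member's start. Of 81 covered length ratios under alternatives, 3 turned, all at Csf1r: LPS in p30 (0.977 with q under 1e-05, 0.972 with lists of equal length) and p30 to p42 untreated (0.998 with q under 0.01). The causes of these shifts were not tested.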
